A study of Rattus norvegicus with 12 samples.

Results

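The genes described here carry a symbol of the naming series for zinc finger proteins, Zfp followed by a number and in 1 case (Znf48) Znf. All probes whose single platform symbol began with Zfp or Znf and a digit were taken, apart from those of Zfp36, and probes of a gene were averaged. This gave 108 genes from 141 probes, out of 18478 features tested (9653 named genes and 8825 unnamed probes). A single probe represented 80 of the genes and several probes the other 28. Every member matched a rat gene with the same current symbol in RefSeq (assembly GRCr8).

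The samples were kidneys of inbred male Lewis rats, used as donors and as recipients, so that each transplant was an isograft between genetically alike animals. Of the 4 groups of 3 arrays, the normal kidneys (NK1 to NK3) were not transplanted and stand for living donors at 0 h. The brain dead donor kidneys (BD1 to BD3) were sampled before transplantation, 6 h after brain death was induced by raising the intracranial pressure under mechanical ventilation. The living donor grafts (C22, C24 and C25) and the brain dead donor grafts (B21, B23 and B27) were sampled 1 h after orthotopic transplantation of the left kidney, with 30 min of operative ischemia and removal of the recipient's right kidney. No group of ventilated animals without brain death was among the samples, so that brain death and ventilation of the donor cannot be told apart. Each array compared Cy3-labelled RNA of 1 kidney with a Cy5-labelled mixture of RNA from 3 normal kidneys. Values are therefore log2 ratios over that common reference, where 0 means the reference level and -1 a halving. That the values are the sample over the reference, and not the reverse, was taken from the design text, and the log base from the range of the values. No label states either for the deposited table, and the sign of every difference rests on this reading. Nothing in the labels says whether the reference kidneys were also the normal group.

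Most zinc finger proteins of this naming series belong to the C2H2 type, in which a pair of cysteines and a pair of histidines hold a zinc ion and each finger contacts a few bases of DNA. Many carry a KRAB domain, which recruits the co-repressor Trim28 (KAP1) together with a histone methyltransferase and heterochromatin proteins, and is known for silencing transposable elements and imprinted genes. Others carry a SCAN domain, through which these factors pair with each other. A few members bear zinc fingers but work on RNA, ribosomes, ubiquitin or the spindle, and Zfp36l1 and Zfp36l2 have CCCH fingers that bind AU-rich messenger RNAs and promote their decay. In the kidney the group is known for Kid-1 (Zfp354a), a KRAB repressor cloned from the rat kidney.

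Promoters of 4 of the 5 members that fell in both comparisons of donors (Zfp444, Zfp689, Zfp692 and Zfp775), and of Zfp819, the member with the largest increase in the comparison of donors at 0 h, are shown here because the changes in RNA described further on concern these genes. The table of promoters used here has no entry for Zfp133, the other member that fell in both. Each sequence is the 250 bases before the RefSeq start on assembly GRCr8, written 5′ to 3′ on the strand of the gene. Capitals mark matches, on either strand, to 7 motifs. They are the GC box with the letters GGGCGG, the box named CCAAT after its letters, a TATA box spelled TATAAA, the core of the CRE spelled TGACG and an ETS motif with the letters CCGGAAG. Further ones are an E box, that is CACGTG, and the core of the motif bound by Zfp143, with the letters ACTACAA, which was added after the sequences had been read. The positions are chr1:76761451-76761700 on the minus strand for Zfp444, chr1:191503752-191504001 on the minus strand for Zfp689 and chr10:42988696-42988945 on the plus strand for Zfp692. They are chr4:78887780-78888029 for Zfp775 and chr1:103174554-103174803 for Zfp819, both on the plus strand.
Zfp444: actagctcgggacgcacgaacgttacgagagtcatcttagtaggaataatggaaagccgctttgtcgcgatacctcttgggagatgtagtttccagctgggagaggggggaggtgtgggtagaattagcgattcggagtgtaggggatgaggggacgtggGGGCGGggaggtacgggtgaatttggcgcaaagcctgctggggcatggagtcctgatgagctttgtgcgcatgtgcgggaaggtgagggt
Zfp689: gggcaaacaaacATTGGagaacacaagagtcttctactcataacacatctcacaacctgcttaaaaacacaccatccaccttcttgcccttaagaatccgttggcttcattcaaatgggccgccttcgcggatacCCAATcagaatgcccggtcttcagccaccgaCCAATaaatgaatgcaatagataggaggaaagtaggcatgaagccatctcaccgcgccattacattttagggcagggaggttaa
Zfp692: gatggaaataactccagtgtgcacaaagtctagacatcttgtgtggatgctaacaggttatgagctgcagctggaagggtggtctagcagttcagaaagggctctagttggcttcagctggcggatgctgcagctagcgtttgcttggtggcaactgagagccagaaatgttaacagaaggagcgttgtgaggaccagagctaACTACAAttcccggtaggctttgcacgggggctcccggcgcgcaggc
Zfp775: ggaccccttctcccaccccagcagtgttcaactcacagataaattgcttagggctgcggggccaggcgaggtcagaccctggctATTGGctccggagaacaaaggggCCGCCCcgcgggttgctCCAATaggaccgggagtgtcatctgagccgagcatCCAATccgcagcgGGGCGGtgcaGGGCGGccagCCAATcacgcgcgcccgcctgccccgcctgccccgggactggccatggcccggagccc
Zfp819: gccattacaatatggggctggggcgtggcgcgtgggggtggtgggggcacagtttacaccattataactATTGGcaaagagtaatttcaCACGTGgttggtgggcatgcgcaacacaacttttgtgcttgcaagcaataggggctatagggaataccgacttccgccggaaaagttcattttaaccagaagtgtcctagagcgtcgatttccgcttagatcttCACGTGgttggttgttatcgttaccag

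These promoters share no single motif. Zfp689 had 3 CCAAT matches and no GC box, Zfp775 had 3 GC boxes and 4 CCAAT matches, and Zfp444 had 1 GC box. Zfp692 had 1 match to the Zfp143 core and none to the other motifs. Zfp819 had 1 CCAAT match and 2 E boxes. Promoters were listed for 93 of the 108 members, with 106 starts. A GC box stood in 47.2% of them, against 30.5% of all 33469 rat starts of the same length, and CCAAT in 45.3% against 34.0%. The CRE core stood in 27.4% against 18.2%, the ETS motif in 14.2% against 7.27%, the Zfp143 core in 6.6% against 2.91% and the E box in 7.55% against 5.59%. TATAAA was the exception, in 9.43% of member starts against 12.9% of all. The median G and C content was 56.0% in member promoters and 51.2% in all, with a median of 14 and 5 CpG dinucleotides. Member promoters were not matched to others for base composition. A match is only a match of letters, and nothing about binding was measured.

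On every array the median ratio of the members lay close to the reference level, though single members ranged from -2.22 on B21 to 2.18 on C24. The median was 0.000 to 0.020 on the normal arrays and -0.069 to -0.046 in kidneys of brain dead donors. In grafts it was -0.066 to 0.013 after living and -0.091 to -0.027 after brain dead donation. The SD of a member between the 3 arrays of its group had a median of 0.085 log2 units for NK1 to NK3 and 0.102 for BD1 to BD3, and in grafts 0.094 for living and 0.126 for brain dead donors. Graft array B21 had the lowest mean correlation with its own group over all features (0.851). A ratio to normal kidney cannot show whether a transcript is present, so the tissue could not be checked by its markers: 7 of 11 kidney markers were measured and none passed in the 0 h comparison, while Podxl of podocytes was lower in brain dead donor grafts than in living donor grafts (-0.61 ± 0.14, limma adjusted p = 0.0346). The mean of 7 leukocyte markers was 0.03 to 0.24 on normal arrays and 0.61 to 1.25 in brain dead donor kidneys, and -0.06 to 0.40 in living and 0.31 to 0.90 in brain dead donor grafts. Of these 7, only S100a9, a neutrophil protein, passed at 0 h (3.47 ± 0.50, limma adjusted p = 0.00729) and none passed at 1 h. At 0 h S100a8 was higher by 1.05, Lyz2 by 0.32 and Ptprc by 0.30, without passing. Cd3e (-0.02), Cd68 (-0.03) and Cd79b (-0.01) did not rise, so the mean of the 7 does not stand for each of them. Of 4 endothelial markers only Pecam1 passed at 0 h (0.29, limma adjusted p = 0.0263), and none passed at 1 h. At 0 h Cdh5 was also higher, by 0.19, while Kdr (-0.38) and Tek (-0.46) were lower, all without passing. At 1 h Pecam1 and Cdh5 were again higher, by 0.10 and 0.12, and Kdr (-0.50) and Tek (-0.68) lower. Alas2, the only 1 of 3 red cell markers measured, passed in neither comparison. The part of other cells in the results on zinc finger genes was not tested. In whole kidney RNA, fewer cells of a type and less RNA per cell cannot be told apart.

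Setting kidneys of brain dead donors against normal kidneys asks what the donor's state does before any transplantation. In it, 8 zinc finger genes fell and 2 rose. The share of members called was 9.26%, where 4.65% of all features were called with limma at an adjusted p under 0.05 (2.27% higher and 2.39% lower). Differences are given as log2 differences with their standard error, with 3 arrays in each group. The median member differed by -0.04, against 0.00 for all features, and 66 of the 108 members (61.1%) were below 0, against 50.5% of all features. At an unadjusted p under 0.05, 18 members were lower and 8 higher, and 17.7% of all features passed. The arrays of both groups did not overlap for 26 members (24.1%), which is close to the 23.9% of all features.

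Zfp133, a KRAB protein, had the largest fall among members that passed. Its log2 ratios were -0.09, -0.32 and -0.28 in normal kidneys and -0.80, -1.43 and -1.23 in brain dead donor kidneys. The groups did not overlap, and the difference of -0.92 ± 0.19 is a fall to 0.527 of the normal level (limma adjusted p = 0.0293). Zfp444, a SCAN protein whose human counterpart was described as binding the promoter of an endothelial scavenger receptor gene, was at -0.08, -0.01 and -0.14 in normal kidneys. It was at -0.61, -0.72 and -0.80 in the donor kidneys, where every array lay under every normal one (-0.64 ± 0.11, limma adjusted p = 0.0125).

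Zfp689, another KRAB protein, was at 0.22, -0.12 and 0.12 in normal kidneys and at -0.46, -0.57 and -0.56 in brain dead donor kidneys. The donor arrays lay close together, and the difference was -0.60 ± 0.11 (limma adjusted p = 0.016). Zfp775, for which no role is given here, was at 0.02, 0.09 and 0.09 against -0.26, -0.66 and -0.52. It differed by -0.55 ± 0.11, with the smallest deviation from normal in BD1 (limma adjusted p = 0.0284). Zfp692, whose human counterpart AREBP binds the promoter of the gluconeogenic PEPCK gene and represses it, was at 0.22, 0.37 and 0.20 in normal kidneys and at -0.09, -0.05 and -0.02 in donor kidneys. All 3 normal arrays stood above the reference and all 3 donor arrays a little under it (-0.32 ± 0.07, limma adjusted p = 0.0306).

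Zfp111, Zfp579 and Zfp64 also fell at 0 h. The KRAB gene Zfp111 was at -0.04, -0.17 and -0.16 in normal and at -0.47, -0.67 and -0.53 in brain dead donor kidneys (-0.44 ± 0.09, limma adjusted p = 0.0255). Zfp579 went from 0.22, 0.42 and 0.33 to 0.05, -0.08 and -0.10 (-0.37 ± 0.07, limma adjusted p = 0.0222). Zfp64, whose human counterpart activates the MLL gene in leukaemia, had the smallest change of those that passed, from 0.21, 0.28 and 0.22 to 0.02, 0.07 and 0.05 (-0.19 ± 0.04, limma adjusted p = 0.0398). Neither Zfp111 nor Zfp579 nor Zfp64 showed any overlap between groups.

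Both genes that rose encode KRAB proteins. Zfp819, known in the mouse from the testis, was at 0.00, 0.00 and 0.03 in normal kidneys and at 0.74, 0.75 and 0.87 in brain dead donor kidneys. Replicates were tight in either group, and the difference of 0.78 ± 0.14 is a 1.71-fold rise (limma adjusted p = 0.0159). Zfp868 was at 0.00, 0.01 and 0.05 against 0.18, 0.38 and 0.41 (0.30 ± 0.07, limma adjusted p = 0.0415). Its 2 probes differed: one was higher by 0.58 and the other by 0.03, so that the average rests on 1 of them. Zfp467, which in the mouse acts on the choice between bone and fat cells, had the largest difference of all members at 0 h, for which it was picked out after its values were seen, -1.13 ± 0.28, and did not pass (limma adjusted p = 0.0536). Its donor arrays were spread over -0.10, -0.99 and -0.91, against 0.53, 0.37 and 0.50 in normal kidneys.

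The number of calls at 0 h depended on single arrays. Leaving out NK1, NK2 or NK3 left 2, 1 and 2 members, with 1.65%, 1.29% and 1.96% of all features called. Leaving out BD2 or BD3 left 0 and 1, with 0.893% and 1.80% of all features. Without BD1, 14 passed, with 6.42% of all features. A fit on these 6 arrays alone called 2, with 1.89% of all features, against 4.65% in the main fit.

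The same comparison 1 h after transplantation set grafts of brain dead donors against grafts of living donors. Here 8 zinc finger genes fell and none rose, 7.41% of the members, close to the 6.76% of all features called (2.02% higher and 4.74% lower). The median member differed by -0.04 and the median feature by 0.01, and 61.1% of members lay below 0 against 46.5% of all features. At an unadjusted p under 0.05, 17 members were lower and 10 higher, against 21% of all features in either direction. Both groups of grafts did not overlap for 29 members, 26.9% against 25.8% of all features.

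Zfp689 was at -0.10, -0.05 and 0.05 in living donor grafts and at -0.83, -0.59 and -0.96 in brain dead donor grafts. The difference of -0.76 ± 0.11 puts it at 0.59 of the living donor level (limma adjusted p = 0.00517). Zfp775 was at -0.13, -0.24 and 0.08 against -0.98, -0.77 and -0.73 (-0.73 ± 0.11, limma adjusted p = 0.00763). Zfp692 was at 0.30, 0.22 and 0.36 against -0.22, -0.13 and -0.32, again above the reference in every kidney of a living donor and below it in every other (-0.52 ± 0.07, limma adjusted p = 0.00451).

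Zfp444 was at -0.21, -0.23 and -0.10 in living donor grafts against -0.54, -0.84 and -1.0 in brain dead donor grafts (-0.61 ± 0.11, limma adjusted p = 0.0104). Zfp133 was at -0.73, -0.73 and -0.15 against -1.49, -1.29 and -1.10 (-0.76 ± 0.19, limma adjusted p = 0.0463). Its living donor grafts were uneven, with C22 and C24 lower than any normal kidney and C25 within their range.

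Zfp386, Zfp266 and Zfp110 passed at 1 h but not at 0 h. Zfp386, a KRAB gene, was at -0.25, -0.35 and 0.13 in living and at -0.96, -0.67 and -0.80 in brain dead donor grafts (-0.66 ± 0.14, limma adjusted p = 0.0257). Zfp266, also KRAB, was at -0.31, -0.37 and -0.28 against -0.76, -0.56 and -0.92 (-0.43 ± 0.10, limma adjusted p = 0.0285). Both lay in the same direction at 0 h, by -0.32 and -0.28, without passing.

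Zfp110 had another course. It encodes a protein known in the mouse as Nrif, which binds the p75 neurotrophin receptor. It was at 0.00, -0.03 and -0.01 in living and at -0.29, -0.18 and -0.33 in brain dead donor grafts (-0.26 ± 0.05, limma adjusted p = 0.019), while at 0 h the difference was -0.01 ± 0.05 (limma adjusted p = 0.952). The test of the difference between both times, the interaction, did not pass (-0.24 ± 0.07, limma adjusted p = 0.806). Under quantile normalization of the arrays, Zfp689, Zfp692 and Zfp775 still passed at 1 h and the count fell from 8 to 3. The share of all features called fell from 6.76% to 1.61%. The count was 4 without C22, 5 without C25 and 5 without B21, with 3.32%, 3.01% and 4.36% of all features called. With each of the 6 arrays left out in turn, Zfp133 passed in 0 fits, Zfp266 in 1, and Zfp110 and Zfp386 in 2. The widest differences at 1 h, picked out after their values were seen, did not pass: Zfp239l1 differed by -0.86 ± 0.33 (limma adjusted p = 0.166) and Zfp746, a KRAB gene, by 0.66 ± 0.27 (limma adjusted p = 0.189).

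**Figure D1:**
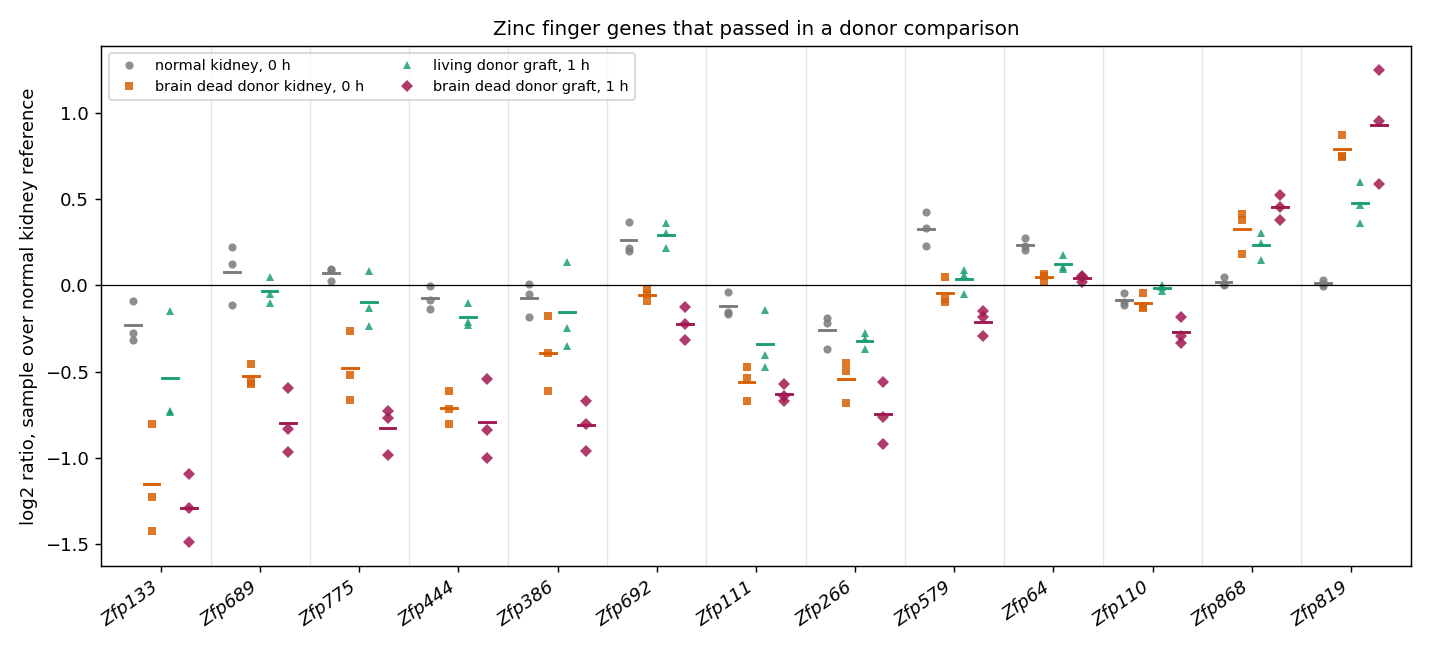
Log2 ratio over the normal kidney reference (vertical axis) on each of the 12 arrays for the 13 zinc finger genes that passed in either comparison of donors, with dots for arrays and bars for the mean of the 3 arrays of a group. Zfp133, Zfp444, Zfp689, Zfp692 and Zfp775 were lower in kidneys of brain dead donors both before and 1 h after transplantation, and Zfp819 and Zfp868 were the only members shown that were higher.

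Both comparisons of donors share no array, though they share the reference mixture and the estimate of spread. Zfp133, Zfp444, Zfp689, Zfp692 and Zfp775 passed in both, which is 5 of the 10 members called at 0 h and 5 of the 8 called at 1 h. Zfp692 at 0 h and Zfp133 at 1 h lost their call whichever 1 of the arrays compared was left out. Of all features called, 57.1% of those at 0 h and 39.3% of those at 1 h were called in both. Over all that were tested, the share called in both with the same direction was 4.63% of the members and 2.66% of all features. All 13 members called in at least 1 comparison had the same sign in the other, as did 95.6% of such features. Over the 108 members, the difference at 1 h correlated with that at 0 h at r = 0.745 and rho = 0.704, against 0.677 and 0.556 over the 9653 named genes and 0.543 and 0.459 over all features. These are correlations across genes, which are not independent replicates and were measured on the same arrays. The sign was shared by 86 members (79.6%, of which 55 lower and 31 higher) by 69.2% of named genes and by 66.4% of all features.

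**Figure D2:**
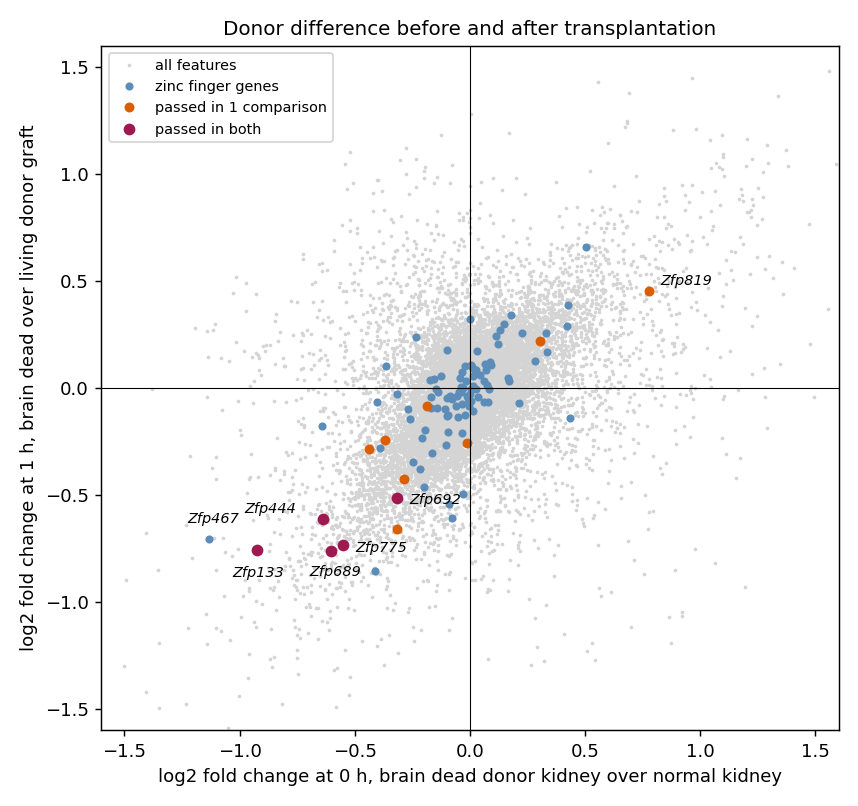
Log2 difference between brain dead and living donors at 0 h (horizontal axis) and in grafts at 1 h (vertical axis) for the 108 zinc finger genes over all 18478 features in grey, of which 56 lie outside the axes. Members gather along the rising diagonal (r = 0.745). The genes named in the lower left passed in both comparisons, apart from Zfp467, which passed in neither.

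The mean of both comparisons, a contrast added after the data had been seen, uses all 12 arrays and the same arrays as above, so it is not independent of them. In it 15 members fell and 6 rose, 19.4% of the members where 14.5% of all features were called (5.68% higher and 8.85% lower). The 6 arrays of brain dead donors and the 6 of living donors did not overlap for 9 members (8 lower, among them Zfp846, which did not pass, and 1 higher, Zfp281), 8.33% against 7.06% of all features (4.54% lower and 2.53% higher). The mean difference was -0.68 ± 0.08 for Zfp689 (limma adjusted p = 0.000656), -0.42 ± 0.05 for Zfp692 (limma adjusted p = 0.000728) and -0.62 ± 0.07 for Zfp444 (limma adjusted p = 0.000853). Zfp775 differed by -0.64 (limma adjusted p = 0.00108) and Zfp133 by -0.84 ± 0.14 (limma adjusted p = 0.00337). The larger part of the group moved little: 81 of the 108 members lay within 0.25 log2 units of 0, and 87 passed in no test of donors.

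This contrast added 8 members, named after their values were seen. Zfp467 was at -0.38, -0.77 and 0.33 in living and -0.99, -0.81 and -1.15 in brain dead donor grafts, and its mean difference over both times was -0.92 ± 0.20 (limma adjusted p = 0.013). Zfp281, which in the mouse regulates pluripotency genes of embryonic stem cells, was at -0.20, -0.55 and -0.35 in normal and 0.07, 0.21 and -0.12 in brain dead donor kidneys, then at -0.26, -0.35 and -0.20 against 0.14, -0.02 and -0.07 in grafts. Every array of a brain dead donor lay above every array of a living one (0.36 ± 0.08, limma adjusted p = 0.0111).

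Zfp622, a factor in the assembly of the large ribosomal subunit, was at 0.01, -0.06 and 0.02 in normal and 0.14, 0.57 and 0.53 in brain dead donor kidneys. In grafts it was at 0.46, 0.32 and 0.14 against 0.71, 0.86 and 0.51, so that living donor grafts also lay above normal kidneys (0.41 ± 0.09 for the mean difference of donors, limma adjusted p = 0.0147). Zfp598, a ubiquitin ligase that acts on collided ribosomes, differed by 0.25 ± 0.07 (limma adjusted p = 0.0407). Zfp91, a ubiquitin ligase of the non-canonical NF-kB pathway, differed by 0.24 ± 0.07 (limma adjusted p = 0.0337), with its 3 probes at 0.04, 0.40 and 0.28.

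Zfp202, a SCAN and KRAB protein known in humans as a repressor of lipid metabolism genes, differed by -0.30 ± 0.08 (limma adjusted p = 0.0298), with its 2 probes at -0.05 and -0.54. Zfp612 differed by -0.18 ± 0.05 (limma adjusted p = 0.0397), with probes at -0.36 and -0.01, and Zfp329 by -0.33 ± 0.09 (limma adjusted p = 0.0406). Thus Zfp202 and Zfp612 each rest on 1 of 2 probes. Of the 21 members, 15 passed whichever single array was left out. The other members were lost in most of the 12 such fits, with a limma adjusted p of up to 0.10. Zfp202 and Zfp598 passed in 4 of them, Zfp612 in 3, and Zfp110, Zfp329 and Zfp91 in 2.

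By the roles listed for the proteins from what is known in mouse, human or rat, the members that fell were spread over the DNA-binding classes. In the mean of both comparisons, 6 of 33 KRAB genes fell and 2 rose, 3 of 8 SCAN genes fell, and of 25 other DNA-binding C2H2 factors 3 fell and 1 rose. Of 30 members to which no role was assigned 3 fell. As shares called these are 24.2% of KRAB, 37.5% of SCAN, 16% of the other DNA-binding and 10% of the members without a role, where 14.5% of all features were called (8.85% lower and 5.68% higher), and the SCAN share rests on 3 genes. The 10 members that act on RNA, ribosomes, ubiquitin or the spindle had 3 that rose (Zfp622, Zfp598 and Zfp91), or 30%, and none that fell. Of these 3, only Zfp622 passed in all 12 fits with 1 array left out, against 4 for Zfp598 and 2 for Zfp91. Median differences were -0.03 for KRAB, -0.10 for SCAN, -0.05 for the other DNA-binding factors, -0.09 for those without a role and 0.07 for the RNA, ribosome and ubiquitin class. Within either time alone, none of these 10 passed. Classes were not tested against each other. Neither CCCH gene passed: Zfp36l1 differed by 0.15 ± 0.13 (limma adjusted p = 0.550) and Zfp36l2 by 0.11 ± 0.11 (limma adjusted p = 0.619).

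**Figure D3:**
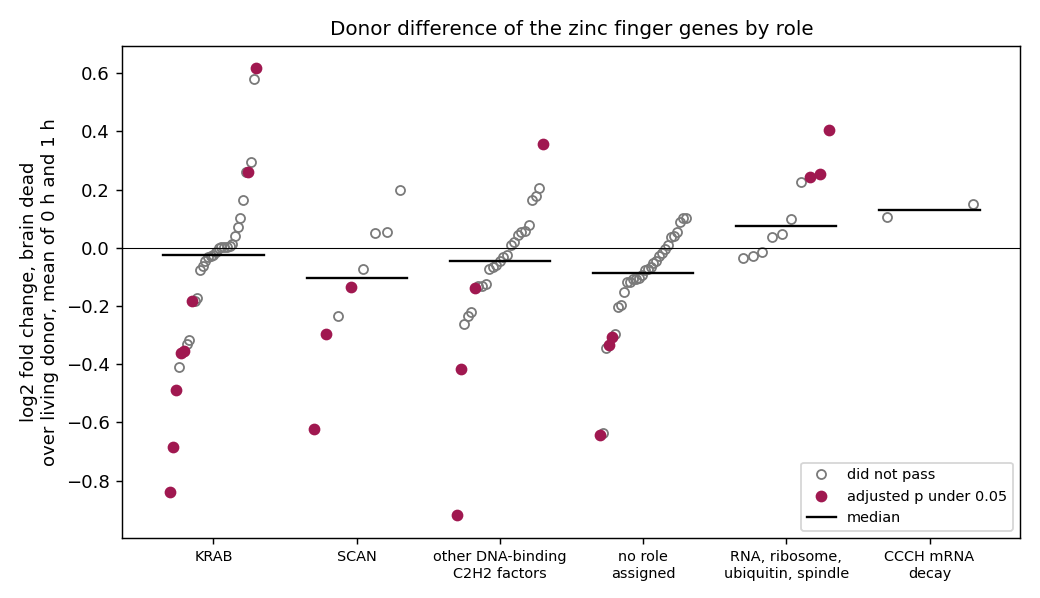
Log2 difference between brain dead and living donors, as the mean of 0 h and 1 h, for each of the 108 zinc finger genes grouped by the role of the protein, with filled dots for those with an adjusted p under 0.05. Most genes of every class lie within 0.25 of 0, and the 3 filled dots of the RNA, ribosome and ubiquitin class are all above 0.

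Of 39 genes listed for the Trim28 co-repressor and its heterochromatin partners, 25 were measured. At 0 h only Hdac1, a histone deacetylase, passed (-0.30, limma adjusted p = 0.0398), and at 1 h only Atrx, a chromatin remodeller (-0.48, limma adjusted p = 0.0267). Each is 1 of 25 or 4%, where 4.65% and 6.76% of all features were called (2.39% and 4.74% lower). In the mean of both comparisons 19 of the 25 (76%) lay below 0, against 46.8% of all features, and the list was not tested as a set. In it 4 fell and none rose, 16% of the list, where 14.5% of all features were called and 8.85% were called lower. They were Mphosph8, a reader of methylated histone H3 in the HUSH silencing complex (-0.52 ± 0.12, limma adjusted p = 0.0182), Hdac1 (-0.20 ± 0.05, limma adjusted p = 0.0219), Atrx (-0.28 ± 0.08, limma adjusted p = 0.0329) and Morc3 (-0.22 ± 0.06, limma adjusted p = 0.0498). The median over the 25 was -0.10 at 0 h, -0.13 at 1 h and -0.15 in the mean. Trim28 itself was uneven: it differed by 0.47 at 0 h (limma adjusted p = 0.575) and by -0.55 at 1 h (limma adjusted p = 0.394).

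Transplantation was addressed by setting the grafts at 1 h against untransplanted kidneys of the same donor type, normal kidneys for living donors and BD1 to BD3 for brain dead donors. These comparisons share arrays with those of donors. No zinc finger gene passed in either with limma, where 0.731% and 0.0541% of all features did. At an unadjusted p under 0.05, 6 members were higher and 8 lower in living donor grafts (10.9% of all features passed), and 7 were higher and 14 lower in brain dead donor grafts (13.1% of all features). The arrays did not overlap for 31 members in living donor grafts, 28.7% against 18.5% of all features, and for 21 members in brain dead donor grafts, 19.4% against 18.8%.

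The largest difference of a member in brain dead donor grafts was that of Zfp354a (Kid-1), and in living donor grafts that of Zfp467 (-0.74 ± 0.28, limma adjusted p = 0.375). Zfp354a was at 0.23, -0.60 and 0.03 in normal kidneys and at -0.93, -1.02 and -0.31 in brain dead donor kidneys. In grafts it was then at 0.48, 0.43 and 0.63 for living and -0.21, 0.68 and 0.53 for brain dead donors. The mean of its grafts lay above that of the untransplanted kidneys of the same donor type, by 0.63 ± 0.28 for living donors (limma adjusted p = 0.461) and 1.09 ± 0.28 for brain dead donors (limma adjusted p = 0.189). Neither passed, and neither did Zfp467.

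Among living donor grafts the smallest p-values after Zfp579 (-0.29 ± 0.07, limma adjusted p = 0.130) were those of Zfp574 (0.29 ± 0.08, limma adjusted p = 0.154) and Zfp131 (0.43 ± 0.12, limma adjusted p = 0.217). Zfp131 was at 0.42, 0.39 and 0.40 in normal kidneys and at 0.93, 0.79 and 0.76 in living donor grafts, against 0.36, 0.84 and 0.85 and then 0.85, 1.10 and 0.93 for brain dead donors. It was thus above the reference on all 12 arrays. Zfp819, the member with the largest rise at 0 h, was also higher in living donor grafts, at 0.46, 0.36 and 0.60 (0.46 ± 0.14 against normal kidneys, limma adjusted p = 0.227), and Zfp868 by 0.21 (limma adjusted p = 0.291). In brain dead donor grafts Zfp819 was at 0.58, 1.25 and 0.95, overlapping the living donor grafts (0.46 ± 0.14, limma adjusted p = 0.0823).

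Among brain dead donor grafts the next after Zfp354a were Zfp715 (-0.24 ± 0.07, limma adjusted p = 0.208) and Zfp110 (-0.17 ± 0.05, limma adjusted p = 0.240). Zfp367 (-0.44 ± 0.14, limma adjusted p = 0.264) and Zfp384 (0.21 ± 0.07, limma adjusted p = 0.267) followed. The fall of Zfp367 was widest in B21, at -1.09, against -0.61 and -0.40 in the other grafts.

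**Figure D4:**
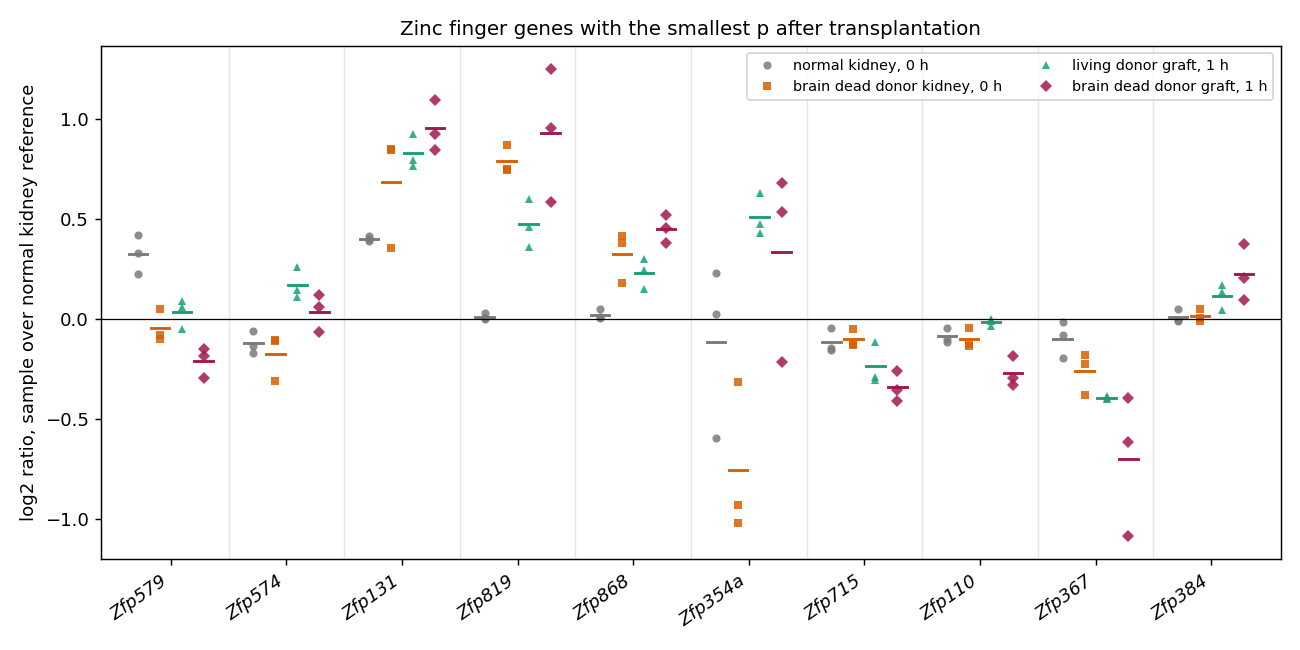
Log2 ratio over the normal kidney reference (vertical axis) on each of the 12 arrays for the zinc finger genes with the smallest p-values after transplantation, with dots for arrays and bars for the mean of the 3 arrays of a group. Zfp354a ranges from -1.02 to 0.68 over the arrays and Zfp131 stays above 0 on all of them, and none of the genes passed in a comparison of grafts with untransplanted kidneys.

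The interaction of donor and time asks whether transplantation acted differently on kidneys of the 2 donor types. No member and no feature passed with limma, and 3 members were higher and 1 lower at an unadjusted p under 0.05, where 5.22% of all features passed. After Zfp110, the smallest p-values were those of the KRAB genes Zfp157 (0.27 ± 0.10, limma adjusted p = 0.881), Zfp719 (0.47 ± 0.16, limma adjusted p = 0.881) and Zfp112 (0.29 ± 0.11, limma adjusted p = 0.917). Zfp36l1, the CCCH decay factor, came next (-0.57 ± 0.27, limma adjusted p = 0.940). It was at 0.49, 0.06 and 0.14 in normal kidneys and 1.09, 0.57 and 0.34 in those of brain dead donors, then 0.73, 0.54 and 0.66 in living and 0.36, 0.42 and 0.74 in brain dead donor grafts. All 12 values lay above the reference and every group overlapped at least 1 other.

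The member with the smallest p over all 4 groups was Zfp689. The named genes outside the group whose log2 ratios over the 12 arrays were most like it were Zfyve16 (r = 0.992), Ccdc127 (r = 0.982), Pacsin2 (r = 0.982), Marveld1 (r = 0.979) and Foxk2 (r = 0.976). The 12 arrays fall into 4 groups, and correlations within groups were not computed.

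Zinc finger genes often lie in clusters on the chromosome. In the order of RefSeq genes, 8 pairs of members were direct neighbours, and 28 of the 108 members lay on chromosome 1. Zfp329 and Zfp110 both fell in the mean of the comparisons of donors. In 3 other pairs 1 gene passed and its neighbour did not: Zfp692 (-0.42) beside Zfp672 (-0.12), Zfp819 (0.62) beside Zfp719 (0.00) and Zfp266 (-0.36) beside Zfp846 (-0.18). In none of the other 4 pairs did a gene pass. KRAB genes of such clusters can be similar in sequence, and cross-hybridisation of their probes was not tested.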

How the data were processed

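The deposited table holds 1 value per probe and array, which was read as a log10 ratio because values centre on 0 and end at exactly 2 on either side. Per the labels, the authors scanned 2-channel Agilent arrays with 1 kidney (Cy3) against a normal kidney mixture (Cy5), extracted them with Agilent Feature Extraction A.7.1.1 and normalized in GeneSpring 7.0, by spot, by chip and by lowess. The sources used here do not name the program that wrote the values. No intensity was used, so dim spots could not be told apart, and the number of arrays limits the precision.

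Groups came from the titles, since all 12 arrays carry 1 identical description that contradicts most titles. The labels give 1 kidney per array but name no animals, so whether the kidneys of a group came from different animals is not stated. The spread behind each p may thus understate that between animals. Values were multiplied by 3.32193 (log2 ratios), 21575 probes were averaged by single symbol (12750 had 1), and limma 3.58.1 (R 4.3.3, lmFit and eBayes) fitted a mean per group (8 residual and 1.89 prior degrees of freedom) over 18478 features, with Benjamini-Hochberg adjustment over all of them and a threshold of 0.05. The code was tested on simulated data. Members, lists and roles were chosen with earlier results of these data known. Named are the members that passed without overlap of replicates (up to 10 in each direction of a comparison), otherwise the 5 with the smallest p, and any named outside this rule are marked as such. Roles came from general knowledge, since no protein sequences were used here. Promoters are RefSeq's (GRCr8), cut to 250 bases before the start. No block for replicate number entered the main fit. Deviations of same-numbered normal and brain dead donor arrays correlated at r of 0.328, 0.10 and 0.034, which with 3 arrays in each group cannot show whether they are paired. A fit with this block called 0 members at 0 h. Alternatives covered normalization, array weights, groups in the fit, probes, zeros, the variance prior, features tested and each array left out.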

Additional observations from a re-analysis of the deposited data

Results flagged for a closer look

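Zfp110 moved in opposite directions after transplantation in both donor types. It was higher in living donor grafts than in normal kidneys by 0.073 log2 units (0.00, -0.03 and -0.01 against -0.05, -0.12 and -0.10). It was lower in brain dead donor grafts than in brain dead donor kidneys, with a difference of -0.169 (-0.29, -0.18 and -0.33 against -0.05, -0.12 and -0.13). Arrays did not overlap in either comparison. The test of the difference itself did not pass (-0.24 ± 0.07, limma adjusted p = 0.806), and neither did either comparison (limma adjusted p = 0.675 and 0.240). With 108 genes examined, 1 such gene is a description only.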

How the results depend on the processing

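No result changed direction under any alternative run. In brain dead donor kidneys against normal kidneys, the 10 members called became 25 with array weights (15.4% of all features called, against 4.65%). They became 15 with quantile normalization (6.06%) and 13 when only named genes were tested (6.40% of those). With only the 2 groups in the fit 2 passed (1.89%), and 0 to 14 with 1 array left out (0.893% to 6.42%). None of the 10 passed with each array left out in turn, and Zfp64 and Zfp692 passed in 0 of these 6 fits. The fit with replicate number as a block called 0, with 0.0108% of all features called. The titles do not say whether arrays of the same number are paired. Same-numbered arrays correlated at 0.328, 0.10 and 0.034 in their deviations, and arrays of different number at -0.274 to 0.278. In brain dead against living donor grafts, 8 became 3 with quantile normalization (1.61% of all features, against 6.76%) and 3 with only the 2 groups in the fit (2.31%). In the same comparison 4 to 7 passed with 1 array left out (3.01% to 5.61%), and array weights gave 2 higher and 6 lower in place of 0 and 8 (6.98% of all features). Zfp444, Zfp689, Zfp692 and Zfp775 passed there with each array left out. In living donor grafts against normal kidneys, array weights called 2 (Zfp579 and Zfp131) in place of 0 (2.61% of all features, against 0.731%). In these comparisons of 2 groups, the count of members moved in the same direction as the shares given, apart from array weights at 1 h, where it stayed at 8. The mean of both comparisons of donors called 15 to 25 with 1 array left out (10.4% to 14.9% of all features called), against 21 (14.5%). It called 18 with quantile normalization (12.3%) and 30 with array weights (10 higher and 20 lower, with 19.3% of all features called). The cause of these changes was not tested. Leaving out graft array B21, chosen after seeing the data, gave 11 in place of 10 at 0 h (4.80% of all features, against 4.65%). Centring on medians, zeros as missing, robust eBayes and leaving out Zfp36l1 and Zfp36l2 changed no count of members. The interaction needs all 4 groups, so a fit of only 2 was not run.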

Other observations

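Other families of zinc finger genes, counted by symbol in the same limma fit, moved as follows in the mean of both comparisons of donors. Of 14 Zc3h genes, which mostly bind RNA, 2 rose and 3 fell. Of 13 Zdhhc genes, which encode palmitoyltransferases, 4 fell and none rose. Of 19 Zbtb genes, which encode transcription factors with a BTB domain, 2 fell and none rose. Of 17 Klf and Sp genes, which encode factors that bind GC-rich promoters, 1 rose and none fell. None of the 5 Zscan and Zkscan genes passed, and of 19 genes of the Zfand, Zcchc, Zmynd, Zmym and Zswim series 2 rose and 2 fell. The share of all features called in this contrast was 14.5%, and the families were not tested against each other. In the 0 h comparison of donors 2 of the 17 Klf and Sp genes rose, where 4.65% of all features were called. Against untransplanted kidneys of the same donor type, 2 rose in living donor grafts (0.731% of all features called) and 1 in brain dead donor grafts (0.0541%).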
